A study of Mus musculus with 10 samples.

Results

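The Hoxa cluster genes examined here were Hoxa2, Hoxa3, Hoxa4, Hoxa5, Hoxa7, Hoxa9, Hoxa10, Hoxa11 and Hoxa13, which are 9 of the 19938 genes named on the array. A gene was a member when a probe set carried its symbol and no other, and each of the 9 genes had 1 such probe set. RNA was measured in 5 preparations of bone marrow mesenchymal stromal cells (MSC), called MSC I, MSC II, MSC III, MSC IV and MSC V, with 2 arrays per preparation and 10 arrays in all. Such cells attach to plastic, look like fibroblasts, and can form bone, fat and cartilage in culture. Every preparation came from the marrow of female C57BL/6J mice aged 6 to 8 weeks, and the cells were grown to passage 16 to 17 in MesenCult medium with 20% mesenchymal supplement and antibiotics. The labels name no treatment, mutation or control. Each preparation was therefore compared with the mean of the other four and with every single one of them. The preparations are long-passaged cultures. The labels give neither the bone nor the number of mice behind each, and they do not say whether the 2 arrays of a preparation came from separate cultures. The p-values therefore measure the spread between these arrays only. That spread may be technical, and precision is limited by how few arrays there are.

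Hox genes encode homeodomain transcription factors that tell cells where they lie along the head-to-tail axis and along the limbs. In each Hox cluster the genes stand in a row, and their order follows the order of their expression: genes at the 3′ end are used early and towards the head, genes at the 5′ end later, towards the tail and the tips of the limbs. Fibroblasts and stromal cells of the adult body keep part of this positional pattern in culture.

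The promoters of the 3 members whose levels differed most between preparations are shown. Those genes are adjacent or nearly so in the cluster, but in MSC V Hoxa9 was low while Hoxa11 and Hoxa13 were high. The 250 bases before each start site are RefSeq sequence of build GRCm38.p6, given 5′ to 3′ on the minus strand, on which the genes are read, with each CG dinucleotide in capitals. They lie at chr6:52227371-52227620 for Hoxa9, chr6:52245811-52246060 for Hoxa11 and chr6:52260881-52261130 for Hoxa13.
Hoxa9: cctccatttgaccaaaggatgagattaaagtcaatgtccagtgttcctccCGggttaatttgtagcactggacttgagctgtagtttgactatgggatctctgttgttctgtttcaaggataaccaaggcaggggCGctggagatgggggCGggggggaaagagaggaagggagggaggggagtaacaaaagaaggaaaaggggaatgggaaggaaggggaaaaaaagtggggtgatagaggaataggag
Hoxa11: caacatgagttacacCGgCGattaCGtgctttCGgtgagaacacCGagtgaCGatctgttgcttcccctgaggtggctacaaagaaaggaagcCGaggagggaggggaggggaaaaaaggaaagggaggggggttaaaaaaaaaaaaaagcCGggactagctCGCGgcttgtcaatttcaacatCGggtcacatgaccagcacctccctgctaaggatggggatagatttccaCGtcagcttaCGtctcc
Hoxa13: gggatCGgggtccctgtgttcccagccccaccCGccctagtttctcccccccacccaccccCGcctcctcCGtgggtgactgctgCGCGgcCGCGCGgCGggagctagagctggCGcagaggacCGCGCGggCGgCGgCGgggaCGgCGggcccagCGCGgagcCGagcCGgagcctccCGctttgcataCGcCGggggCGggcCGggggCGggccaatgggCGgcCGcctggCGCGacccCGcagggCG
CG dinucleotides, the sites of DNA methylation in mammals, numbered 3 in the Hoxa9 window, 13 in that of Hoxa11 and 35 in that of Hoxa13. The median over 32851 annotated promoters of the same length was 6, and 2.97% of them held at least as many as Hoxa13. DNA methylation was not measured in these arrays. Of the 9 members 8 had a promoter in the table, with 2 for Hoxa10. Searched on both strands, a retinoic acid receptor half-site (AGGTCA) was found in 0 of these 9 windows and in 14.0% of all promoters. A Meis half-site (TGACAG) was found in 2 of them, those of Hoxa2 and Hoxa3, and in 15.9% of all promoters. A Cdx core (TTTATG) was found in that of Hoxa7 and in 10.8% of all, and a TATA box (TATAAA) in 1 of the Hoxa10 windows and in 12.4% of all. These are matches of letters in a short window.

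The label of the cells was set against lists of stromal, blood and endothelial markers. Of the 11 stromal markers measured, 6 lay above the table median of 6.55 log2 on all arrays, and the mean over the list was 9.14 to 9.41 log2 across the preparations. Of the other 5, Eng (CD105) lay above that median in MSC IV alone, Thy1 (CD90) on 3 arrays of MSC II and MSC III, Lum on 2, Nt5e (CD73) on 7 and Vcam1 on 9. Of 11 blood markers, 8 were above that median on no array, including Ptprc, Itgam, Adgre1, Csf1r, Spi1 and Laptm5 at 4.70 to 5.38 log2, and the list mean ran between 5.53 and 5.99 log2. Cd68, a lysosomal protein of macrophages that other cells also carry, was highest in MSC V, at 8.53 and 8.55 log2, against 6.40 to 7.52 in the other arrays. Kit was above the median only in MSC I and in 1 array of MSC IV, and Cd34 in every preparation but MSC I. The part of these genes' cells in the Hoxa levels was not tested. The 6 endothelial markers stayed between 4.79 and 5.32 log2 on all arrays. Levels are robust multi-array average values on the log2 scale, on which 1 unit is a 2-fold difference, and array medians ran between 6.45 and 6.63.

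The 9 Hoxa genes did not move as a block. Hoxa11 and Hoxa13, next to each other at the 5′ end, were high in MSC V, where Hoxa9 was low. Hoxa10, which lies between Hoxa9 and Hoxa11, was at like levels in all 5 preparations, and so was Hoxa4. Hoxa2 and Hoxa3, at the 3′ end, were highest in MSC I, and Hoxa7 was lowest in MSC III. By limma's moderated F test over all preparations, at a Benjamini-Hochberg adjusted p under 0.05 and a range of preparation means of at least 1 log2, 7 of the 9 members differed, all but Hoxa4 and Hoxa10, where 29.1% of the 10971 genes tested did. Their range of preparation means had a median of 1.40 log2 for the members and 0.75 for all genes tested. Without MSC I replicate 1 the count was 4 of 8 members tested. All 9 members passed the low-value filter of at least 2 arrays above the table median, but Hoxa2 did so only through MSC I and Hoxa13 only through MSC V, so that a higher level there was a condition of their being tested, and their calls are no support for a difference across the cluster. In a culture's RNA, fewer cells of a kind and less RNA per cell cannot be told apart.

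**Figure D1:**
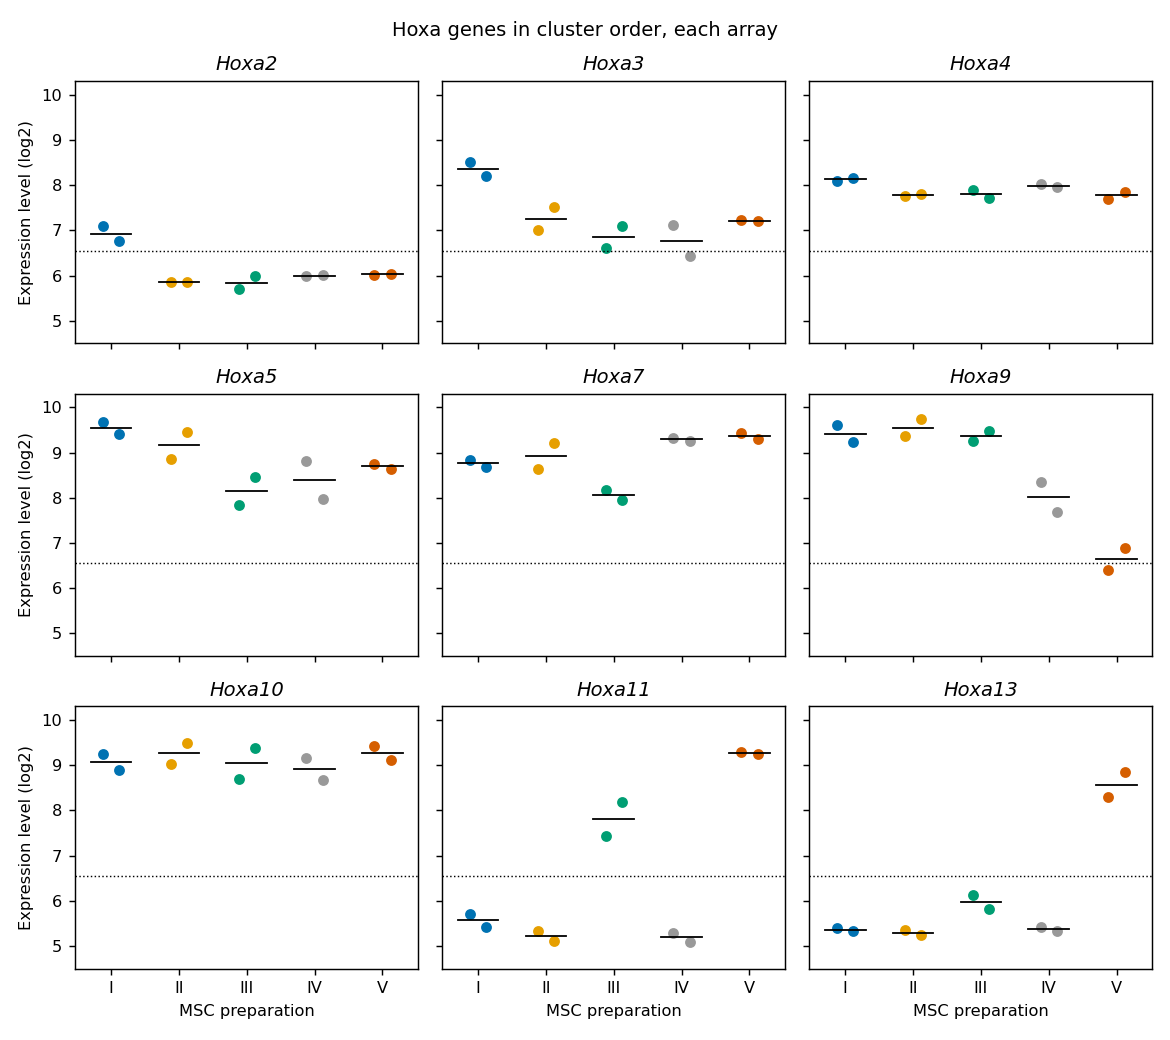
Expression level (log2) of each Hoxa gene on each of the 10 arrays, by preparation MSC I to MSC V. Points are arrays, bars are preparation means, and the dotted line is the table median of 6.55. Hoxa11 and Hoxa13 are highest in MSC V and Hoxa9 is lowest there, while Hoxa4 and Hoxa10 are nearly level. Levels of different genes come from different probes and are not comparable.

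Hoxa11 had the widest range. In the mouse limb it patterns the forearm and lower leg, and it also acts in the uterus and kidney. It stood at 9.28 and 9.25 log2 in the MSC V arrays and at 7.44 and 8.19 in those of MSC III, against 5.72 and 5.43 in MSC I, 5.34 and 5.10 in MSC II, and 5.29 and 5.10 in MSC IV. The MSC V arrays were highest, those of MSC III came next, and the other three preparations lay together below the table median, with no overlap between these levels. MSC V averaged 9.27 ± 0.02 log2 (SD, n = 2), against a mean of 5.95 over the other four, a difference of 3.32 ± 0.19 log2 (SE) or 9.96-fold (limma, adjusted p = 0.000157). MSC III averaged 7.82 ± 0.53 (SD, n = 2) and was 1.50 ± 0.19 log2 above the mean of the other four (limma, adjusted p = 0.00576).

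The order of Hoxa11 levels was MSC V, MSC III, MSC I, MSC II and MSC IV. Over the pairs of preparations, 7 of 10 differed, each pair with MSC III or MSC V in it, and MSC I, MSC II and MSC IV were not separated from each other. The step between MSC III and MSC V was the least firm of these: MSC III was 1.45 ± 0.24 log2 lower than MSC V (−1.45, limma, adjusted p = 0.0214), and this call ended without MSC III replicate 1 (adjusted p = 0.0866), MSC V replicate 1 (0.0983) or MSC V replicate 2 (0.0997). Robust multi-array averages are compressed at low signal, so folds against the MSC I, MSC II and MSC IV levels are lower bounds, and a low level does not show absence. Hoxa11 was also below the mean of the other four in MSC I (−1.30 ± 0.19, adjusted p = 0.00168), MSC II (−1.74, 0.0015) and MSC IV (−1.78, 0.000664). With MSC V left out of the mean, a comparison added after the data had been seen, Hoxa11 remained lower in MSC IV (−1.01, limma, adjusted p = 0.00769), and the differences in MSC II (−0.97) and MSC I (−0.50, adjusted p = 0.0697) no longer met the rule.

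Hoxa13, the most 5′ gene of the cluster, patterns the hand and foot, the end of the gut and the genital tubercle. It stood at 8.29 and 8.84 log2 in MSC V, against 5.39 and 5.33 in MSC I, 5.35 and 5.25 in MSC II, 6.13 and 5.83 in MSC III, and 5.42 and 5.33 in MSC IV. Only the MSC V arrays were above the table median, and they did not overlap with any other. MSC V averaged 8.56 ± 0.39 log2 (SD, n = 2), against 5.50 over the other four, a difference of 3.06 ± 0.15 log2 or at least 8.33-fold, a lower bound since all other arrays were below the table median (limma, adjusted p = 9.99e-05). Without either MSC V array the gene failed the filter and was not tested. Its MSC V level was thus a condition of the test, and its values are given as a description. MSC V exceeded each other preparation, and no other pair met both parts of the rule.

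MSC III, the preparation with the second highest Hoxa11 level, also had the second highest Hoxa13 level, at 5.98 ± 0.21 log2 (SD, n = 2). Its difference against MSC V was −2.58 ± 0.19 log2 (limma, adjusted p = 0.000765). Hoxa13 in MSC II was 1.02 log2 below the mean of the other four (−1.02 ± 0.15, adjusted p = 0.00498), a call that ended without MSC II replicate 2 (−0.97) or the first array of MSC III (−0.98), or with MSC V left out of the mean (−0.27, limma, adjusted p = 0.255).

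Hoxa9 ran the other way in MSC V. It acts in the limb and the trunk and is a regulator of blood progenitors that is active in myeloid leukaemia. Its levels were 6.41 and 6.88 log2 in MSC V and 8.35 and 7.68 in MSC IV, against 9.60 and 9.22 in MSC I, 9.37 and 9.74 in MSC II, and 9.27 and 9.47 in MSC III. The MSC V arrays were lowest and those of MSC IV next, and neither overlapped with the arrays of MSC I, MSC II and MSC III, which overlapped with each other. MSC V averaged 6.64 ± 0.33 log2 (SD, n = 2), against 9.09 over the other four, a difference of −2.44 ± 0.22 log2 or 5.44-fold lower (limma, adjusted p = 0.00109). Leaving out 1 array at a time gave −2.68 to −2.21 log2.

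The order of Hoxa9 levels was MSC II, MSC I, MSC III, MSC IV and MSC V, and the top 3 were not separated. Of 10 pairs 7 differed: MSC I, MSC II and MSC III each against MSC IV and against MSC V, and MSC IV against MSC V. MSC IV was 1.37 ± 0.27 log2 above MSC V (limma, adjusted p = 0.0127), and this ended without MSC IV replicate 1 (adjusted p = 0.0567) or MSC V replicate 1 (0.0710). The call of MSC II over MSC IV ended without MSC II replicate 2 (adjusted p = 0.0657) or MSC IV replicate 2 (0.0578), and that of MSC III over MSC IV without MSC III replicate 1 (0.0590), MSC III replicate 2 (0.114) or MSC IV replicate 2 (0.108). Hoxa9 was above the mean of the other four in MSC II (1.19 ± 0.22, limma, adjusted p = 0.00999) and in MSC I (1.02 ± 0.22, 0.00819). The MSC II call ended without MSC II replicate 2 (adjusted p = 0.100), and that of MSC I without the first array of MSC I (0.83 log2), of MSC II (0.97), of MSC III (0.99) or of MSC V (0.96) or the second array of MSC IV (0.93), and after centring each array on its median (0.98) or quantile normalisation (0.99). With MSC V left out of the mean the differences were 0.62 log2 in MSC II and 0.43 in MSC I, neither of which passed. MSC IV was then lower (−1.42 ± 0.22, adjusted p = 0.00323).

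Hoxa10 lies between Hoxa9 and Hoxa11 and patterns the part of the limb nearest the body and the uterus. It stood at 9.41 and 9.11 log2 in MSC V, against 9.25 and 8.89 in MSC I, 9.03 and 9.50 in MSC II, 8.70 and 9.38 in MSC III, and 9.16 and 8.66 in MSC IV. The arrays of all 5 preparations overlapped. The preparation means spanned 0.35 log2 (limma F test, adjusted p = 0.724), and 0 of 10 pairs differed by limma, also 0 at an unadjusted p under 0.05. MSC V was 0.19 ± 0.23 log2 from the mean of the other four. Mir196b, a miRNA gene between Hoxa9 and Hoxa10 whose product targets Hox transcripts, lay at 5.80 to 6.47 log2, below the table median on every array, and was not tested.

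Among the central genes, Hoxa7 patterns the thoracic region of the spine. It stood at 8.16 and 7.95 log2 in MSC III, against 8.84 and 8.68 in MSC I, 8.64 and 9.22 in MSC II, 9.33 and 9.26 in MSC IV, and 9.43 and 9.30 in MSC V. The MSC III arrays lay below all others. MSC III averaged 8.06 ± 0.15 log2 (SD, n = 2), against 9.09 over the other four, a difference of −1.03 ± 0.15 log2 (limma, adjusted p = 0.0105). This lies just past the 1 log2 minimum and ended without MSC II replicate 2 (−0.96), MSC III replicate 1 (adjusted p = 0.0789) or MSC III replicate 2 (−0.92, adjusted p = 0.140), and with MSC V left out of the mean (−0.94). The preparation with the least Hoxa7 was thus MSC III, where Hoxa11 was the second highest. MSC V, however, had the highest mean of both Hoxa7 and Hoxa11. Of the pairs, MSC III was lower than MSC IV (−1.24 ± 0.19, limma, adjusted p = 0.00664) and MSC V (−1.31, 0.0144). The first of these ended without MSC III replicate 2 (adjusted p = 0.0581), and the second without any one of the MSC III or MSC V arrays (adjusted p between 0.0704 and 0.0935). MSC I lay 0.71 log2 above MSC III (limma, adjusted p = 0.0321) and MSC II lay 0.87 above it (0.0407), both under the 1 log2 minimum. MSC IV (0.51 log2, limma, adjusted p = 0.0368) and MSC V (0.60, 0.0426) were above the mean of the other four, also under the minimum. Neighbours in the order MSC V, MSC IV, MSC II and MSC I were not separated.

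Hoxa5 acts in lung development and in the neck and upper chest segments. It stood at 9.67 and 9.41 log2 in MSC I, against 8.87 and 9.46 in MSC II, 7.83 and 8.45 in MSC III, 8.80 and 7.96 in MSC IV, and 8.75 and 8.64 in MSC V. MSC I was high, but it overlapped with MSC II, and the arrays of MSC III and MSC IV were spread. MSC I was 0.94 ± 0.26 log2 above the mean of the other four, under the minimum (limma, adjusted p = 0.0226). It differed from MSC III (1.40 ± 0.33, limma, adjusted p = 0.0194) and MSC IV (1.15, 0.024). The first ended without the first array of MSC I (adjusted p = 0.110) or of MSC III (0.124), and the second without MSC I replicate 1 (0.112), MSC I replicate 2 (0.0553) or MSC IV replicate 2 (0.139). The F test of Hoxa5 (adjusted p = 0.0376) was the weakest of the 7. It ended without either array of MSC I (0.115 and 0.0790) or of MSC V (0.0586 and 0.0575), without the second array of MSC II (0.0521), without the first of MSC III (0.0802) and with no low-value filter (0.0699).

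Hoxa4, which acts in the neck vertebrae, stood at 8.09 and 8.15 log2 in MSC I, 7.77 and 7.79 in MSC II, 7.88 and 7.72 in MSC III, 8.03 and 7.95 in MSC IV, and 7.70 and 7.85 in MSC V. MSC I and MSC IV were a little above the other three. The means spanned 0.35 log2 (limma F test, adjusted p = 0.0894), and 0 of 10 pairs met the rule, with 3 at an unadjusted p under 0.05. MSC I was 0.29 ± 0.09 log2 above the mean of the other four (limma, adjusted p = 0.0371) and 0.34 above MSC II (0.0499). Both are under the 1 log2 minimum.

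At the 3′ end, Hoxa3 is needed for the thymus, the parathyroids and other structures of the throat. It stood at 8.51 and 8.20 log2 in MSC I, against 7.00 and 7.52 in MSC II, 6.61 and 7.10 in MSC III, 7.11 and 6.43 in MSC IV, and 7.22 and 7.20 in MSC V. Both MSC I arrays lay above all others. MSC II overlapped with MSC III, MSC IV and MSC V, and MSC III with MSC IV. The MSC V arrays lay above those of MSC III and MSC IV. MSC I averaged 8.35 ± 0.22 log2 (SD, n = 2), against 7.02 over the other four, a difference of 1.33 ± 0.22 log2 or 2.51-fold (limma, adjusted p = 0.00296), and it was higher with each array left out in turn (1.17 to 1.48 log2). MSC I also exceeded each other preparation, by 1.58 log2 against MSC IV (adjusted p = 0.0035), 1.50 against MSC III (0.00831), 1.14 against MSC V (0.0239) and 1.09 against MSC II (0.0198).

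The pair calls of Hoxa3 and its F test rested on few arrays. The F test ended without MSC I replicate 1 (adjusted p = 0.0780). The call against MSC II ended without the first array of MSC I (adjusted p = 0.103) or of MSC II (0.107), that against MSC III without the first array of MSC I (0.0623) or of MSC III (0.0618), and that against MSC V without any one of the MSC I or MSC V arrays (0.0608 to 0.117). MSC II, MSC III, MSC IV and MSC V were not separated. The annotated span of Hoxa3 overlaps Hoxa4 and Hoxa5 in the RefSeq annotation, and the positions of the probes were not used here.

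Hoxa2, the most 3′ gene measured, patterns the second pharyngeal arch and keeps bone from forming there. It stood at 7.09 and 6.76 log2 in MSC I, against 5.85 and 5.85 in MSC II, 5.70 and 5.99 in MSC III, 5.99 and 6.00 in MSC IV, and 6.02 and 6.04 in MSC V. MSC I alone lay above the table median, and its arrays did not overlap with any other. That level was a condition of Hoxa2 being tested, so its values are given as a description. Its mean was 6.92 ± 0.23 log2 (SD, n = 2), against 5.93 over the other four, and the difference of 0.99 ± 0.12 log2 was just under the minimum of 1 (limma, adjusted p = 0.000641). MSC I exceeded MSC II by 1.07 ± 0.15 log2 (limma, adjusted p = 0.00161) and MSC III by 1.08 (0.00219). The second call ended without MSC III replicate 1 (0.93 log2).

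**Figure D2:**
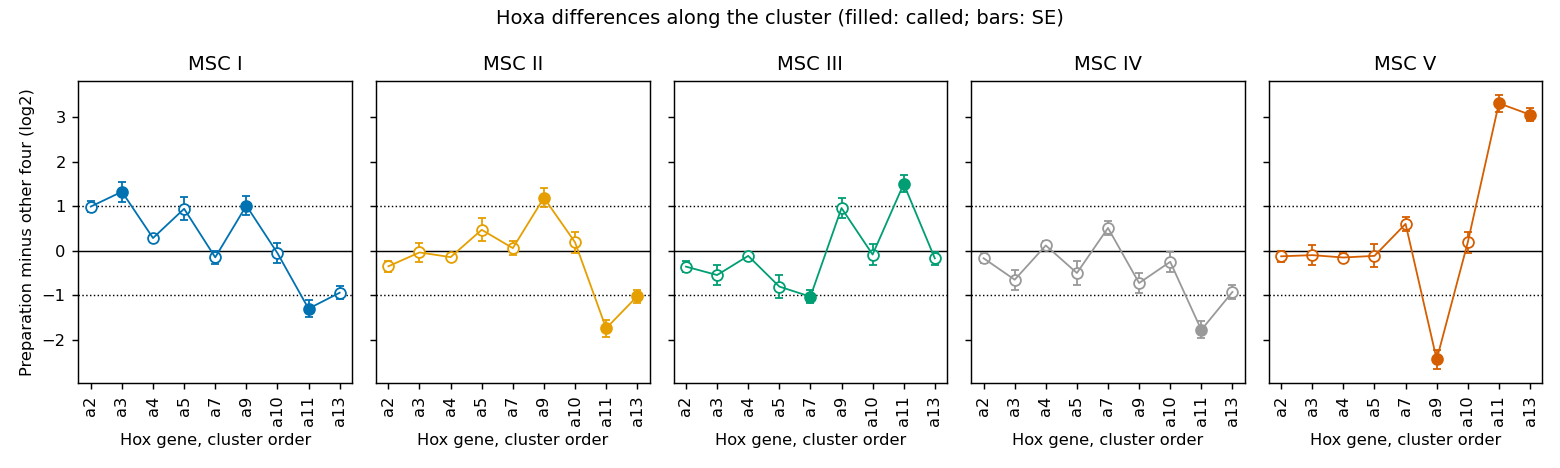
Difference of each preparation from the mean of the other four (log2), with the Hoxa genes in cluster order from the 3′ end at the left to the 5′ end at the right of each panel. Points are differences, bars are standard errors, filled points passed the test and dotted lines mark 1 log2. MSC V shows −2.44 for Hoxa9 beside 3.32 for Hoxa11 and 3.06 for Hoxa13.

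Over the whole cluster, called members were counted for each preparation against the mean of the other four. Hoxa11 was a lower member in MSC I, MSC II and MSC IV alike. With so few members, a count of 0 or 1 is not read as a trait of a preparation. In MSC V, 2 members were higher, Hoxa11 and Hoxa13, where 2.11% of genes tested were higher, and 1 was lower, Hoxa9, where 1.44% were lower. Hoxa13 was tested only because of its MSC V level, so its call adds no support here. The count of higher members was 1 without either MSC V array. In MSC I, 2 members were higher, Hoxa3 and Hoxa9, beside 7.73% of genes tested, and 1 was lower, Hoxa11, beside 5.22%. The higher count was 4 without MSC III replicate 2 and 1 without the arrays that ended the Hoxa9 call. In MSC II, 1 member was higher, Hoxa9, beside 2.45%, and 2 were lower, Hoxa11 and Hoxa13, beside 2.69%, the lower count being 1 without either MSC V array. In MSC III, 1 was higher, Hoxa11, beside 1.31%, and 1 was lower, Hoxa7, beside 0.957%. The higher count was 2 without MSC IV replicate 1. In MSC IV, 0 were higher by limma (1 at an unadjusted p under 0.05), beside 3.29%, and 1 was lower, Hoxa11, beside 7.70%, a count that was 2 without MSC IV replicate 1. Arrays whose loss ended the call of a single gene are named with that gene above. The median member difference in MSC V was −0.10 log2, against −0.01 over all genes tested. With MSC V left out of the mean, 2 members were higher in MSC I, Hoxa2 and Hoxa3, beside 8.65% of genes tested. There 0 were lower (1 at an unadjusted p under 0.05), beside 5.91%. Hoxa2 was tested only because of its MSC I level and adds no support to that count. In MSC II 0 were higher (1 unadjusted), beside 2.85%, and 0 lower (2 unadjusted), beside 2.93%. In MSC III 1 was higher, Hoxa11, beside 1.93%, and 0 were lower (4 unadjusted), beside 1.57%. In MSC IV 0 were higher (1 unadjusted), beside 3.64%, and 2 were lower, Hoxa9 and Hoxa11, beside 8.03%. Because every preparation is part of the mean for the other four, the high Hoxa11 and Hoxa13 levels of MSC V enter each of these differences.

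Of 90 combinations of a member and a pair of preparations, 28 met the rule, where 9.56% of such combinations did over all genes tested. By pair, the share of genes tested was lowest between MSC III and MSC V, at 2.07%, and there 4 members differed, Hoxa7, Hoxa9, Hoxa11 and Hoxa13. It was highest between MSC I and MSC IV, at 20.3%, where 3 members differed, Hoxa3, Hoxa5 and Hoxa9. MSC I differed in 2 members from MSC II (14.9% of genes tested), in 4 from MSC III (11.3%) and in 4 from MSC V (10.5%). MSC II differed in 1 member from MSC III (3.02%), in 1 from MSC IV (9.06%) and in 3 from MSC V (5.56%). MSC IV and MSC V differed in 3 (10.9%), as did MSC III and MSC IV (7.99%). Hoxa9 and Hoxa11 made up 7 pairs each, Hoxa3 and Hoxa13 4 each, and Hoxa2, Hoxa5 and Hoxa7 2 each. The Hoxa13 pairs all held MSC V and the Hoxa2 pairs all held MSC I. Those levels were a condition of the testing, so these pairs add no support to the count.

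Likeness between members was measured as the root mean square difference of their preparation means, each gene centred on its own mean over the 5 preparations. This is a description over 5 preparations, and genes with a narrow range are alike by construction. The most alike pair of neighbours was Hoxa2 and Hoxa3, at 0.247 log2. Hoxa4 and Hoxa10, which are not neighbours, were at 0.248. The least alike pair of the cluster was Hoxa9 and Hoxa11, at 2.49. Along the cluster, the steps between adjacent members were largest between Hoxa10 and Hoxa11 (1.60), between Hoxa7 and Hoxa9 (1.49) and between Hoxa9 and Hoxa10 (1.15). Hoxa11 and Hoxa13 stood 0.737 apart, with Hoxa11 also raised in MSC III. The 8 adjacent pairs had a median of 0.676 and the 28 others a median of 1.11.

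**Figure D3:**
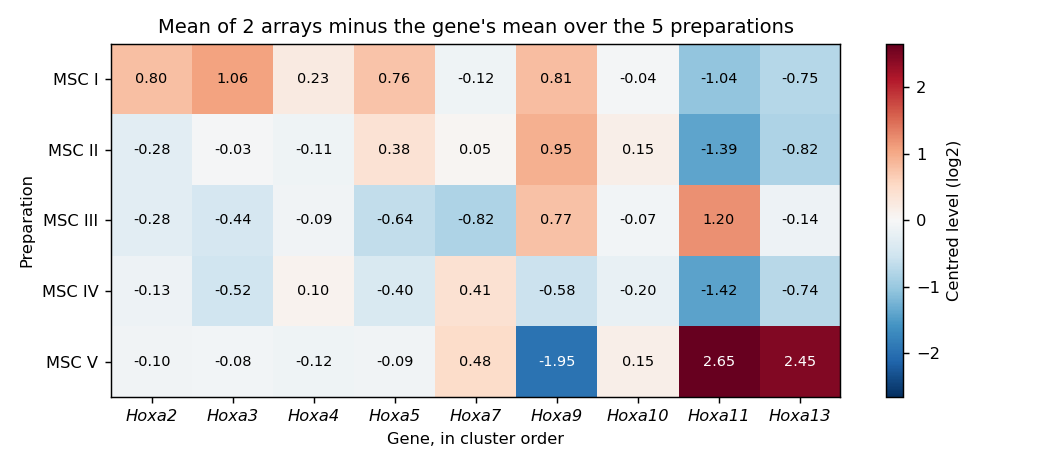
Preparation mean of each Hoxa gene minus that gene's mean over the 5 preparations (log2), with genes in cluster order. In MSC V, Hoxa11 is at 2.65, Hoxa13 at 2.45 and Hoxa9 at −1.95, and the other genes are within 0.5 of their own mean.

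The genes with the pattern most like those of the 3 widest members, outside the Hox clusters, were sought among 10609 genes tested. For Hoxa11 they were Unc13c, a synaptic vesicle priming protein (0.574 log2), Steap4, a metalloreductase (0.636), and P2ry10b (0.637). Unc13c averaged 8.45 log2 in MSC V and 7.42 in MSC III, against 5.77 in MSC I, 6.00 in MSC II and 5.61 in MSC IV. For Hoxa13 they were the cadherins Cdh18 (0.298) and Cdh13 (0.318) and Bmper, a secreted regulator of bone morphogenetic proteins (0.332). Cdh18 averaged 8.63 log2 in MSC V and 4.97 to 5.12 in the other preparations. Only its MSC V mean was above the table median, so that level was a condition of its being a candidate. For Hoxa9 they were Meis2 (0.356), Fbxl7, an F-box protein (0.377), and Pitx1, a transcription factor of the hindlimb (0.415). Pitx1 averaged 5.53 log2 in MSC V and 6.70 in MSC IV, against 8.83 in MSC I, 8.31 in MSC II and 9.11 in MSC III. All these genes were picked for their likeness to a member, so high or low preparations shared with it follow from the choice.

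Hox proteins bind DNA together with cofactors of the TALE homeodomain class. Of 8 such genes tested, 5 differed between preparations, beside 29.1% of all genes tested: Meis1, Meis2, Meis3, Pbx3 and Pknox2. That count was 3 without MSC I replicate 1. Meis2 stood at 8.07 and 8.16 log2 in MSC V, against 9.42 to 11.21 on the other arrays, and was lower in MSC V by the test (−2.11 ± 0.20, limma, adjusted p = 0.00138). It was the 1 cofactor called in MSC V, the preparation where Hoxa9 was lowest. Pknox2 was highest in MSC I, at 10.06 and 10.75 log2, and lowest in MSC IV, at 6.49 and 6.00. It was higher in MSC I (2.60 ± 0.27, limma, adjusted p = 0.000312) and lower in MSC IV (−2.60, 0.000562).

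Polycomb proteins keep Hox genes silent and trithorax proteins keep them active. Of 24 such genes tested, 3 differed, Phf19, Jarid2 and Kdm6b, a share below the 29.1% of all genes tested. Phf19, an accessory subunit of Polycomb complex PRC2, stood at 8.41 and 8.54 log2 in MSC I, against 4.88 to 5.99 on the other arrays. It was tested only because of its MSC I level, so the values are given as a description. In MSC V, where Hoxa11 and Hoxa13 were highest, limma called 0 of the 24 in either direction, with 5 lower and 0 higher at an unadjusted p under 0.05. Their median difference there was −0.06 log2.

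Retinoic acid, made by Aldh1a2 and sensed by receptors such as Rarb, switches on 3′ Hox genes in embryonic cells. Of 18 genes listed for retinoic acid, Cdx and related control of Hox expression, 11 were tested and 4 differed, Aldh1a2, Rarb, Crabp1 and Crabp2, a share of 36.4% beside 29.1% of all genes tested. MSC I, which had the highest Hoxa2 and Hoxa3, had Aldh1a2 at 12.55 and 13.41 log2, against 5.17 to 8.21 on the other arrays (6.47 ± 0.45, limma, adjusted p = 4.14e-05). Rarb was at 8.20 and 8.81 log2 there, against 5.60 to 6.53 elsewhere, and it too was tested only because of its MSC I level. Crabp2, which carries retinoic acid to its receptors, was lower in MSC I (−3.30 ± 0.18, limma, adjusted p = 1.07e-05). The Hoxb genes of the same numbers were not high in MSC I. Hoxb2 stood at 6.09 and 6.11 log2 there and Hoxb3 at 6.07 and 6.32, below the table median. Both were highest in MSC II, with means of 8.73 and 8.29 log2. Hoxd3 was below that median on all arrays. Cdx1, Cdx2 and Cdx4, activators of central Hox genes, were above the table median on no array. Whether the 18 listed genes had a part in the Hoxa levels was not tested.

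Genes next to the cluster did not follow Hoxa11 and Hoxa13 uniformly. Of 9 neighbours measured, 7 were tested and 3 differed, Snx10, Hoxaas2 and Jazf1, beside 29.1% of all genes tested. On the 5′ side, the homeobox gene Evx1 and the long noncoding RNA Hottip, which in human cells acts on the 5′ HOXA genes, were below the table median on all arrays. Hottip was at 4.92 and 4.82 log2 in MSC V, against 4.51 to 4.73 on the other arrays. Jazf1, farther out on the Evx1 side, stood at 7.59 and 8.35 log2 in MSC V and 8.26 and 7.98 in MSC III, against 6.15 to 7.16 in the other three preparations. It was higher than the mean of the other four in MSC III (1.19 ± 0.23, limma, adjusted p = 0.0311) and in MSC V (1.00 ± 0.23, 0.0339), the 2 preparations with the most Hoxa11. Both calls were fragile, ending in MSC V without MSC V replicate 2 (0.63 log2, adjusted p = 0.189) and in MSC III without MSC III replicate 1 (adjusted p = 0.273) or MSC III replicate 2 (0.163), among others. Hoxaas2, an antisense gene within the 3′ part of the cluster, was highest in MSC IV, at 7.30 and 7.14 log2. The strand that its probes and those of the overlapping Hoxa3 detect was not used here.

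In MSC V the related genes of the other Hox clusters went different ways. They carry the number of the Hoxa gene they descend with, and such partners are called paralogues. Hoxc9, the partner of Hoxa9, was also lower, at 7.71 and 6.96 log2 in MSC V, against 9.32 to 10.40 on the other arrays (−2.44 ± 0.21, limma, adjusted p = 0.00107). Hoxb9 was not low there, at 8.84 and 8.44 log2 (1.09 ± 0.20, adjusted p = 0.0161, lost without MSC V replicate 1 at 0.89 or replicate 2 at adjusted p = 0.0513). No tested partner of Hoxa11 or Hoxa13 met the rule for a higher level in MSC V. Hoxc11 stood at 7.25 and 6.89 log2 there, below the mean of the other four but under the 1 log2 minimum (−0.81 ± 0.14, limma, adjusted p = 0.014). Hoxc13 stood at 6.64 and 6.73 and was lower (−1.24 ± 0.17, limma, adjusted p = 0.0051, lost without MSC V replicate 1 at 0.0562). Hoxd11 and Hoxd13 were at 4.95 to 5.30 log2 on all arrays, Hoxb13 at 4.80 to 5.21, and none was tested. In MSC V 7 of the 9 Hoxc genes were lower, beside 1.44% of all genes tested. Between preparations all 9 Hoxc genes differed, beside 29.1% of all genes tested, and so did the 7 Hoxb genes and the 1 Hoxd gene that were tested. Of these, Hoxb4, Hoxb6 and Hoxb7 were tested only because of their MSC II level and Hoxd8 only because of its MSC IV level. The Hoxb count was 4 of 4 tested without either MSC II array, and the Hoxd gene was not tested without either MSC IV array.

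**Figure D4:**
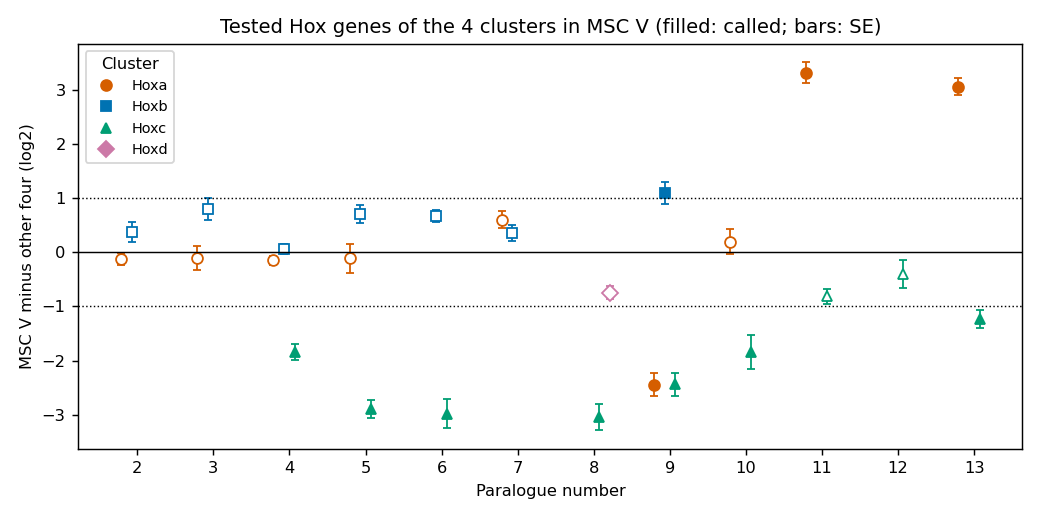
MSC V minus the mean of the other four (log2) for the Hox genes tested in the 4 clusters, by paralogue number. Bars are standard errors, filled symbols passed the test and dotted lines mark 1 log2 in either direction. Hoxa11 and Hoxa13 are the only points above 3, and Hoxa9 at −2.44 lies beside Hoxc9 at −2.44.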

How the data were processed

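Total RNA of 5 preparations of marrow stromal cells was labelled and hybridised to 10 Affymetrix arrays, per the labels' protocols. The deposited values are log2 expression levels made with RMA and Partek, per the submitters' processing notes, whose versions and settings are not given in the sources used here. The table holds 35399 probe sets, of which 21789 carry 1 gene symbol in the platform annotation, 1621 several and 11989 none. Symbols were updated through the gene ID for 21698 probe sets, and only probe sets with 1 symbol were used. A gene was represented by the probe set with the highest mean over all arrays, which gave 19938 genes. No 2 arrays held identical values.

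The 10971 genes with at least 2 arrays above the table median of 6.55 were fitted with limma 3.58.1 in R 4.3.3 (lmFit, eBayes, 1 mean per preparation, all 10 arrays sharing 1 estimate of the spread). The contrasts were a moderated F test, each preparation minus the mean of the preparation means of the rest, and each of 10 pairs. P-values were adjusted by Benjamini-Hochberg over all genes tested within each contrast. The rule for a call was a difference (for the F test, a range of means) of at least 1 log2 with an adjusted p under 0.05. SDs are between the 2 arrays of a preparation and SEs are from the fit. The fit was tested on simulated data. All members were named, any gene of the lists could be named, and the genes most like a member were the 3 with the smallest distance for each of the 3 members with the widest range. The members and lists were chosen with earlier results of these data known. Promoters were matched by symbol to the RefSeq table of GRCm38.p6. Tables were handled in Python 3.11.15. No signal over background or detection call was used, and low levels are therefore not read as absence.

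The alternatives were each array left out in turn, a block for the replicate number, a low-value filter at the 75th percentile (9.22) or none, probe sets averaged per gene, median centring, added quantile normalisation, and trended, robust eBayes. Leaving MSC V out of the mean for the other four was added after the data had been seen.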

Additional observations from a re-analysis of the deposited data

How the results depend on the processing

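No called difference of a member changed direction under any alternative tried. With MSC V left out of the mean, the uncalled ones that did were Hoxa13 in MSC III (0.64 log2, −0.17 with MSC V in it) and Hoxa7 in MSC I (0.00, −0.15). With 1 array left out, the count of members that differed ran between 4 and 7. Members higher ran between 1 and 4 in MSC I, 0 and 1 in MSC II, 1 and 2 in MSC III, 0 and 0 in MSC IV and 1 and 2 in MSC V. Members lower ran between 1 and 1 in MSC I, 1 and 2 in MSC II, 0 and 1 in MSC III, 1 and 2 in MSC IV and 1 and 1 in MSC V. Calls over pairs ran between 20 and 28. Lists that differed ran between 3 and 5 for cofactors, 2 and 3 for Polycomb and trithorax genes, 3 and 3 for region neighbours, 3 and 5 for upstream regulators, 4 and 7 for Hoxb, 9 and 9 for Hoxc and 0 and 1 for Hoxd. With the filter at the 75th percentile 5 members were tested, of which 4 differed, 1 was higher in MSC I, 1 was lower in MSC II, 1 was higher in MSC V, and 18 pair calls were made, with 3 cofactors, 1 neighbour, 1 Hoxb and 0 Hoxd genes differing. No filter gave 2 Hoxd genes. Centring on medians and quantile normalisation each gave 1 member higher in MSC I. With MSC V left out of the mean, 0 were lower in MSC I, 0 higher and 0 lower in MSC II, 0 lower in MSC III and 2 lower in MSC IV. The causes were not tested.

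The replicate numbers did not pair the arrays: of 10 correlations of same-numbered arrays' deviations, which ran between −0.555 and 0.203, 1 was above 0. With the replicate number as a block, 2724 of 10971 genes differed, against 3192 without it, and 2 member calls ended: the F test of Hoxa5 (adjusted p = 0.0705) and Hoxa11 in MSC III against MSC V (adjusted p = 0.0620). Signal over background was not used, and levels under the table median limit what a difference shows.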
